A study of Homo sapiens with 12 samples.

Results

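Proteoglycan and hyaluronan genes were followed in IMR90 ER:RAS cells, a line of human lung fibroblasts in which 4-hydroxytamoxifen (4OHT) switches on a RAS protein fused to the estrogen receptor and drives oncogene-induced senescence (OIS). The set held 10 of the 62069 genes in the count table: the large proteoglycans ACAN and VCAN, the small leucine-rich proteoglycans DCN, BGN and LUM, the link protein HAPLN1, the hyaluronan synthases HAS1, HAS2 and HAS3, and CEMIP, which is needed for hyaluronan breakdown. The genes were selected by symbol, and the selection used measured values, since ACAN and CEMIP were picked for their low level after induction. Levels of the 10 genes in induced against non-induced cells are therefore given as description, without a test.

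All 4 groups carried the ER:RAS fusion and held 3 libraries each. Non-induced cells had no 4OHT. Induced cells were profiled at day 5 of 4OHT, whose concentration is given as 100 nM, and the same 4OHT induction was combined with the shRNA shXPO7_3 or shXPO7_5 against XPO7, an exportin that moves proteins across the nuclear envelope. The shRNA written shXPO7_5 was taken to be the shXPO7_X5 of the study. Per the study's figure, cells without an XPO7 shRNA carried a vector. The growth notes give 7 days of culture with new medium on day 4, and all libraries are of 1 cell line. Whether the 3 libraries of each group were grown as separate cultures is not stated, and p-values then reflect library-to-library spread that could be technical only.

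Proteoglycans are core proteins that carry long sulfated sugar chains. Aggrecan (ACAN) and versican (VCAN) bind hyaluronan in complexes with link proteins and hold water in the matrix, while decorin, biglycan and lumican sit on collagen fibrils. Hyaluronan itself is spun out at the plasma membrane by the HAS enzymes and cut by hyaluronidases, and fibroblasts are a source of many of these molecules in connective tissue.

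Promoter sequence is shown for ACAN and CEMIP, the genes with the lowest levels after induction relative to non-induced cells. Each line gives the 250 bases before the RefSeq start on GRCh38.p14, at chr15:88803186-88803435 for ACAN and chr15:80779120-80779369 for CEMIP, both on the plus strand. Capitals mark matches on either strand to the GC box (GGGCGG), the TATA box (TATAAA) or the E box (CANNTG).
ACAN: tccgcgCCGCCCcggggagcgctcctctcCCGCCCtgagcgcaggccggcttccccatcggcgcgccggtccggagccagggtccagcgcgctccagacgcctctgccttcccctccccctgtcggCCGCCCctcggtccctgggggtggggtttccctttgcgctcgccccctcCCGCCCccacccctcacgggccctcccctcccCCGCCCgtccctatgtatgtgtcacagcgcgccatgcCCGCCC
CEMIP: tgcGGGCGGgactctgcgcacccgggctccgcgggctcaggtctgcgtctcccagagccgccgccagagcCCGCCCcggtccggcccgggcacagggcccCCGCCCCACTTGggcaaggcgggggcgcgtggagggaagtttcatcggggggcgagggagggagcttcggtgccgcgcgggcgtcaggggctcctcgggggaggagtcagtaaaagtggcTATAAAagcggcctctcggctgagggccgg
Both windows held 28 CpG dinucleotides, against a median of 11 over 35093 promoters, and were 77.2% (ACAN) and 74.4% (CEMIP) G or C, against a median of 58.0%. ACAN had 6 GC boxes and CEMIP had 3, and 42.6% of all promoters held at least 1. Among the other windows of the set, G or C ran from 50.8% (HAPLN1) to 74.0% (BGN). BGN had 5 GC boxes and 16 CpG dinucleotides, so GC boxes and a high share of G or C were not particular to ACAN and CEMIP. CEMIP had 1 TATA box beginning at base -30 and 1 E box at base -144, directly after a GC box. These matches overlap no other match and occur in 10.7% and 61.8% of promoters. An AP-1 motif (TGANTCA), found in 6.6% of promoters, was not among the letters of either window. Promoters of 7 of the 10 genes were in the RefSeq table, and those of DCN, LUM and HAS2 were not used here.

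Totals per library ran from 28534141 to 60397769 counts. XPO7 itself was at 134.5 ± 7.04 CPM (counts per 1000000 reads, scaled by the trimmed mean of M-values; mean ± SD, n = 3) in non-induced cells and 136.6 ± 8.81 in induced cells, and fell to 27.7 ± 1.14 with shXPO7_3 and 52.2 ± 1.62 with shXPO7_5 (edgeR adjusted p = 1.24e-08 and 3.27e-06). Libraries within a group differed in a trend with transcript GC content, most within shXPO7_5. The trend was taken as the rank correlation (rho) of all genes' log ratio to the induced mean with GC content. In shXPO7_5 it was 0.118 in library A, nearest the induced mean, and 0.588 and 0.764 in T and B. Without library A, 3634 genes were called against induced cells in place of 90. In shXPO7_3, rho was 0.554 in library T and -0.336 and -0.234 in A and B. All 8 fibroblast markers reached 1 CPM in every group, and their summed level was 23185 to 27143 CPM in non-induced libraries and 16807 to 18279 in induced ones. None of the 5 immune markers reached 1 CPM, and CD3E was at 0 in all 12 libraries. The 5 epithelial markers summed to 0.935 to 1.27 CPM in non-induced and 0.565 to 0.711 in induced libraries, with KRT5 and SFTPC at 0. The 5 endothelial markers summed to 14.6 to 15.05 and 9.39 to 10.2 CPM, with PECAM1 and CDH5 at 0 but TEK at 12.4 and 6.31 CPM and VWF at 2.22 and 3.14. The 6 smooth muscle and mesothelial markers summed to 154.4 to 173.6 and 182.3 to 189.1 CPM, where CNN1 was at 48.2 and 16.5, SMTN at 110.4 and 168.4 and DES at 2.75 and 0.209. Of 9 chondrocyte markers COL2A1, COL9A1, COL11A2, MATN1 and CHAD stayed below 1 CPM. SOX9 was at 83.5 CPM in non-induced and 120.3 in induced cells, and SOX5 at 6.82 and 9.78. COL9A2 and MATN3 went the other way, from 4.10 to 2.42 and from 5.61 to 2.27 CPM. The list, of which SOX9 was the largest part, summed to 100.3 to 102.1 and 133.3 to 138.3 CPM. The part of these marker shifts in the results was not tested. In bulk RNA, fewer cells with a transcript and less of it per cell cannot be told apart.

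By level per length, DCN and BGN led the set in non-induced cells, and BGN and VCAN in induced cells. In CPM without length, VCAN was above BGN in non-induced (323.7 and 252.7) and induced cells (667.6 and 285.0). Per kilobase of the longest coding transcript, the 10 together held 323.2 ± 15.4 CPM per kb in non-induced cells, of which DCN made up 42.7% ± 0.279 and BGN 32.7% ± 4.04 (SD, n = 3). In induced cells the sum was 223.5 ± 8.44, of which BGN made up 53.1% ± 2.07, VCAN 23.6% ± 2.11 and HAS2 9.31% ± 0.230, while DCN held 5.99% ± 0.379. The share of DCN depends on the length used, because its transcripts differ much in length: on the mean transcript length it was 70.7% ± 0.271 in non-induced and 16.4% ± 1.15 in induced cells. HAPLN1 and HAS1 lay at the bottom and did not pass the filter on low counts, so 8 of the 10 genes were tested.

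**Figure D1:**
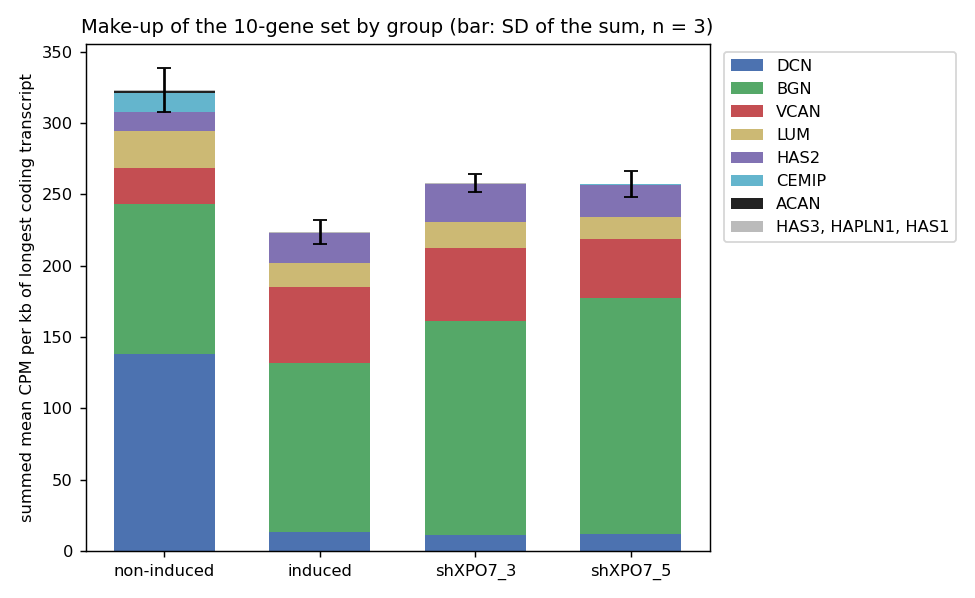
Summed level of the 10 genes in each group, as mean CPM per kb of the longest coding transcript, stacked by gene, with the SD of the sum over 3 libraries as the error bar. DCN is the largest segment in non-induced cells, and BGN and VCAN make up most of each bar in the 3 induced groups.

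In induced against non-induced cells, ACAN, CEMIP and DCN were lower by 72.4-fold, 42.2-fold and 10.3-fold, HAS3 was 2.07-fold lower, and VCAN and HAS2 were 2.06-fold and 1.56-fold higher. BGN and LUM differed least, by 1.13-fold and 1.49-fold. Since the contrast was used to pick the set, these values carry no test.

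ACAN, the aggrecan core protein best known from cartilage, was at 17.4, 13.8 and 14.9 CPM in the non-induced libraries T, A and C. In the induced libraries T, A and B it was at 0.273, 0.106 and 0.222 CPM, which rest on 10, 3 and 11 reads. Every non-induced library lay far above every induced one, and the induced mean was 1.31% of the non-induced mean (log2 fold change -6.18, SE 0.34).

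CEMIP was at 102.3, 102.1 and 91.3 CPM in the non-induced libraries and at 2.05, 2.80 and 2.22 CPM in the induced ones, again with no overlap. The induced mean was 2.39% of the non-induced mean (log2 fold change -5.40, SE 0.14). Reads of CEMIP ran from 75 to 110 in induced libraries, so this level is better measured than that of ACAN. The locus shares bases with MESD and other annotated genes, and the strand setting of the counting is not given.

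The small leucine-rich proteoglycans did not move as a group. DCN (decorin), which binds collagen fibrils and growth factors, was at 926.8, 1027.8 and 1005.7 CPM in non-induced libraries T, A and C and at 92.6, 96.2 and 98.0 in induced libraries T, A and B (log2 fold change -3.37, SE 0.08). BGN (biglycan), its closest relative in the set, was at 272.4, 256.0 and 229.8 CPM and then at 285.8, 284.0 and 285.0 (log2 fold change 0.17, SE 0.10). All induced libraries were above all non-induced ones for BGN, but by little, and the 95% interval of the fitted change ran from -0.05 to 0.39. LUM (lumican) was at 46.4, 90.9 and 94.0 CPM in non-induced and 52.3, 55.2 and 48.4 in induced libraries. The non-induced library T lay below all 3 induced libraries and the other non-induced libraries above them, so the LUM groups overlapped. The log2 fold change of LUM was -0.57 (SE 0.32, 95% interval -1.26 to 0.12), and -0.83 without non-induced library T. With an offset for each library's trend with GC content and length, LUM was at -0.69 (95% interval -0.997 to -0.391). BGN was then at 0.30 (95% interval 0.22 to 0.38). The intervals for this contrast are description only, since it was used to pick the set. The offset also takes out GC differences between groups.

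VCAN (versican), the large proteoglycan of loose connective tissue, was at 267.6, 317.9 and 385.6 CPM in non-induced and 723.1, 707.9 and 571.8 in induced libraries. The groups did not overlap (log2 fold change 1.04, SE 0.16), so the 2 large hyaluronan-binding proteoglycans of the set differed in opposite directions.

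Among the synthases, HAS2 was the one with a sizeable level. It was at 42.8, 58.1 and 66.9 CPM in non-induced and 88.4, 91.6 and 81.7 in induced libraries, without overlap (log2 fold change 0.64, SE 0.19). HAS3 was at 1.42, 1.87 and 1.53 CPM and then at 0.793, 0.780 and 0.767, with only 22 to 38 reads in the induced libraries (log2 fold change -1.05, SE 0.19). HAS2 made up 97.2% ± 0.536 of the summed HAS1, HAS2 and HAS3 level per length in non-induced and 99.1% ± 0.0425 in induced cells (SD, n = 3).

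HAS1 had 1 read in 1 shXPO7_3 library and 0 in the other 11 libraries. A count of 0 over the libraries of a group allows a level of up to 0.0288 CPM in non-induced, 0.0260 in induced and 0.0296 in shXPO7_5 cells, for counting error only. HAPLN1 had 6 reads over the non-induced libraries, 10 over the induced, 18 over the shXPO7_3 and 16 over the shXPO7_5 libraries. With these counts no difference in HAPLN1 or HAS1 could be resolved.

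**Figure D2:**
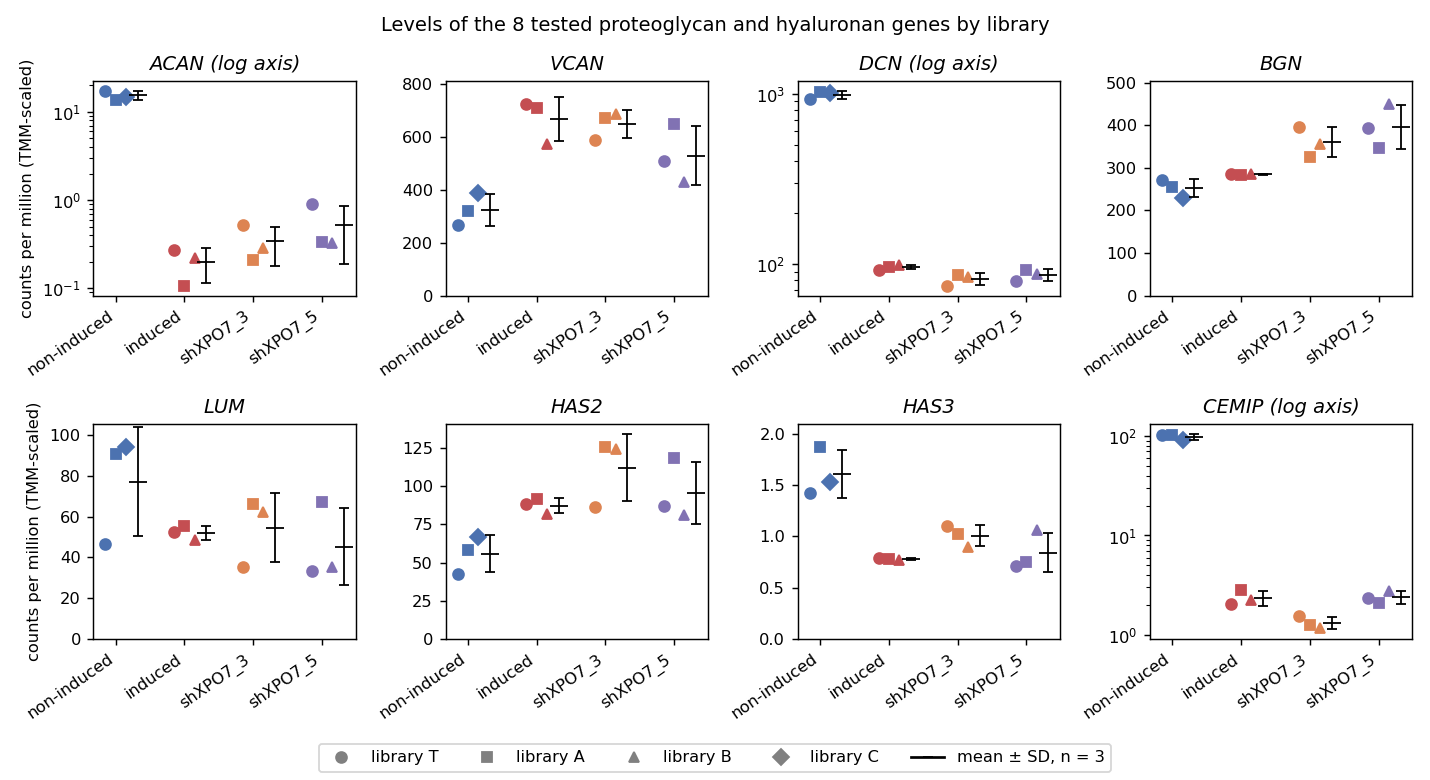
CPM of the 8 tested genes in each of the 12 libraries (points, shape by library letter), with the mean and SD of each group; ACAN, DCN and CEMIP have log axes, the others start at 0. ACAN, DCN and CEMIP are low in all 9 induced libraries, and LUM spreads within groups as widely as between them.

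None of the 8 tested genes passed the threshold for shXPO7_3 against induced cells, where 0.124% of all genes were called, and none for shXPO7_5 against induced cells, where 0.589% were. The test was edgeR's quasi-likelihood test with Benjamini-Hochberg adjustment. At an unadjusted p under 0.05 there were 3 and 2 genes, beside 6.41% and 21.6% of all genes tested. DESeq2 called 1 in each comparison, CEMIP for shXPO7_3 and BGN for shXPO7_5, beside 97 of 15083 and 458 of 12634 over all genes. Both knockdown groups had the low ACAN, CEMIP and DCN levels of induced cells: against non-induced cells, which are shared by all these comparisons, ACAN was at a log2 fold change of -5.50 (shXPO7_3) and -4.91 (shXPO7_5), CEMIP at -6.22 and -5.35, and DCN at -3.60 and -3.51.

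CEMIP was the gene with the smallest unadjusted p for shXPO7_3. It was at 1.54, 1.27 and 1.18 CPM in the shXPO7_3 libraries T, A and B, from 56, 42 and 70 reads, all below the 3 induced libraries. The log2 fold change was -0.82 (SE 0.15, adjusted p = 0.0751 in edgeR's quasi-likelihood test). It was called in 3 of 20 alternatives, namely DESeq2, no filter beyond 1 count and an offset for GC content and length, with adjusted p over the alternatives from 0.00361 to 0.315. With shXPO7_5, CEMIP was at 2.36, 2.08 and 2.76 CPM, overlapping the induced libraries (log2 fold change 0.04, 95% interval -0.28 to 0.36).

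Compared directly, CEMIP was 0.87 higher on the log2 scale with shXPO7_5 than with shXPO7_3 (SE 0.16, edgeR adjusted p = 0.262), and every shXPO7_5 library was above every shXPO7_3 library. The range of adjusted p over the 20 alternatives was 0.00605 to 0.841, with a call in the same 3 settings. None of the 8 genes passed in this direct comparison, in which 0.0131% of all genes were called by edgeR. At an unadjusted p under 0.05 there was 1 gene, CEMIP, beside 11.9% of all genes tested. DESeq2 called 1, beside 28 of 13860 over all genes.

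BGN was at 396.9, 326.2 and 356.2 CPM with shXPO7_3 and 392.3, 346.9 and 449.6 with shXPO7_5, in libraries T, A and B, so all 6 were above all 3 induced libraries. The log2 fold change was 0.34 (SE 0.10, edgeR adjusted p = 0.363) for shXPO7_3 and 0.48 (SE 0.10, edgeR adjusted p = 0.0565) for shXPO7_5. For shXPO7_5 it was called in 7 of 20 alternatives (adjusted p 0.00151 to 0.225), among them the fits without shXPO7_3 library T (adjusted p = 0.0343) and without shXPO7_5 library A (adjusted p = 0.0183). For shXPO7_3 it was called in 1 of 20, the GC offset (adjusted p 0.00108 to 0.885). Without shXPO7_5 library A, 3634 of all 15790 genes tested were called for shXPO7_5, and without shXPO7_3 library T 181 of 15525.

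ACAN was at 0.521, 0.211 and 0.286 CPM with shXPO7_3 and 0.910, 0.332 and 0.328 with shXPO7_5. The shXPO7_5 libraries held 27, 11 and 12 reads and did not overlap the induced ones (log2 fold change 1.27, SE 0.48, edgeR adjusted p = 0.199). Even the highest of these levels was far under the lowest non-induced library. Without shXPO7_5 library A, ACAN passed narrowly for shXPO7_5 (log2 fold change 1.498, adjusted p = 0.0497, and 0.0497 to 0.484 over the alternatives). In that fit 3634 of all 15790 genes tested were called.

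VCAN was at 588.0, 670.2 and 685.7 CPM with shXPO7_3 and 509.4, 646.7 and 428.9 with shXPO7_5. Both groups overlapped the induced libraries (log2 fold changes -0.04, 95% interval -0.39 to 0.30, and -0.34, interval -0.68 to 0.01). Without shXPO7_5 library A it was called for shXPO7_5, at -0.51 (adjusted p = 0.0403, and 0.0403 to 0.656 over the alternatives). That fit called 3634 of all 15790 genes tested. DCN was at 74.3, 86.5 and 84.1 CPM with shXPO7_3 and 79.4, 92.5 and 87.7 with shXPO7_5, slightly below the induced libraries in each case (log2 fold changes -0.23 and -0.14, edgeR adjusted p = 0.508 and 0.265). HAS3 was at 1.10, 1.03 and 0.893 CPM with shXPO7_3 and 0.707, 0.755 and 1.06 with shXPO7_5, with log2 fold changes of 0.36 and 0.12 (95% intervals -0.07 to 0.78 and -0.32 to 0.57).

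**Figure D3:**
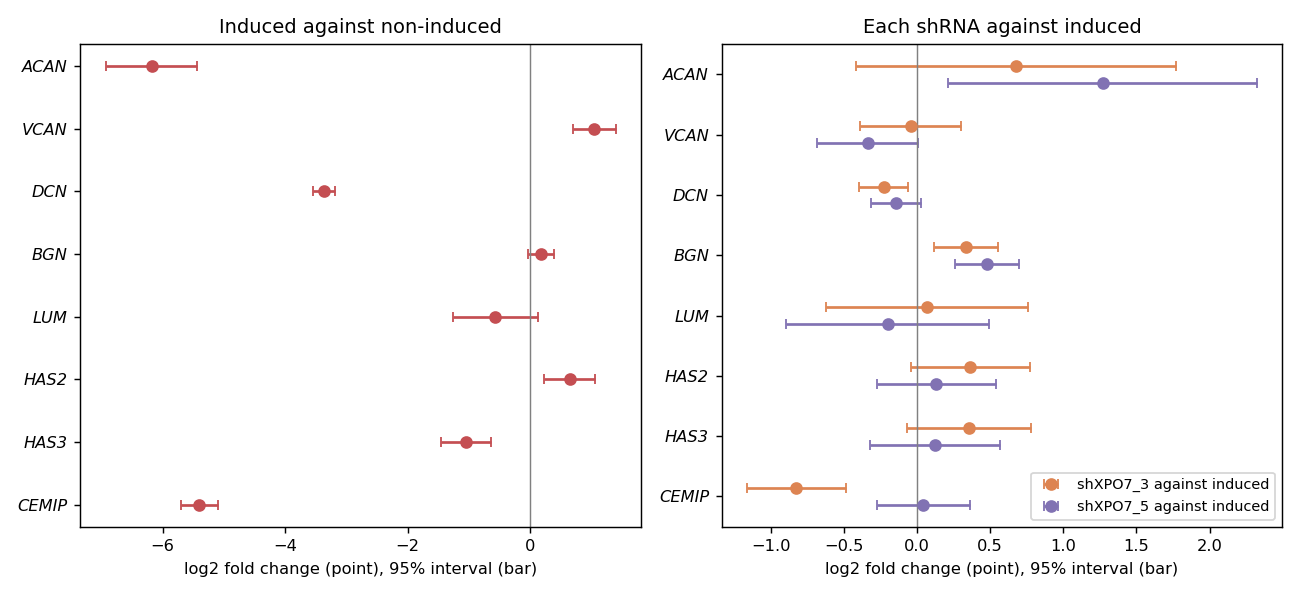
Log2 fold change of the 8 tested genes with its 95% interval (bars), for induced against non-induced cells (left) and for each shRNA against induced cells (right, on a narrower axis). The changes with the shRNAs lie between -0.82 and 1.27, while those with induction lie between -6.18 and 1.04.

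LUM, HAS2, VCAN and BGN varied between libraries of a group along with this GC trend. For each library, the rank correlation of all genes' log ratio to the group mean with transcript GC content (Spearman's rho over 14864 genes, which are not independent) ran from -0.69 in shXPO7_5 library A to 0.71 in shXPO7_5 library B. Transcripts of LUM and HAS2 are 36.9% G or C and those of BGN 60.7%. LUM was highest relative to its group in shXPO7_5 library A (0.65 on the log2 scale) and lowest in non-induced library T (-0.66), whose rho was 0.56. HAS2 was highest and lowest in the same libraries (0.33 and -0.36), and BGN was lowest in shXPO7_5 library A (-0.18) and highest in shXPO7_5 library B (0.19).

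The spread within groups narrowed when each library's trend with GC content and length was taken out as an offset. On the log2 scale the SD within groups went from 0.48 to 0.21 for LUM, from 0.27 to 0.07 for HAS2, from 0.13 to 0.03 for BGN and from 0.23 to 0.17 for VCAN. For DCN it went from 0.09 to 0.10. The offset was fitted per library against the mean of all 12 libraries, without the groups, so it also takes out GC differences between groups. Relative to the induced mean, rho was 0.59, 0.12 and 0.76 in shXPO7_5 libraries T, A and B. It was 0.55, -0.34 and -0.23 in shXPO7_3, and -0.17, -0.20 and 0.30 in induced libraries. A GC shift between groups and an shRNA effect on the same genes cannot be told apart.

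**Figure D4:**
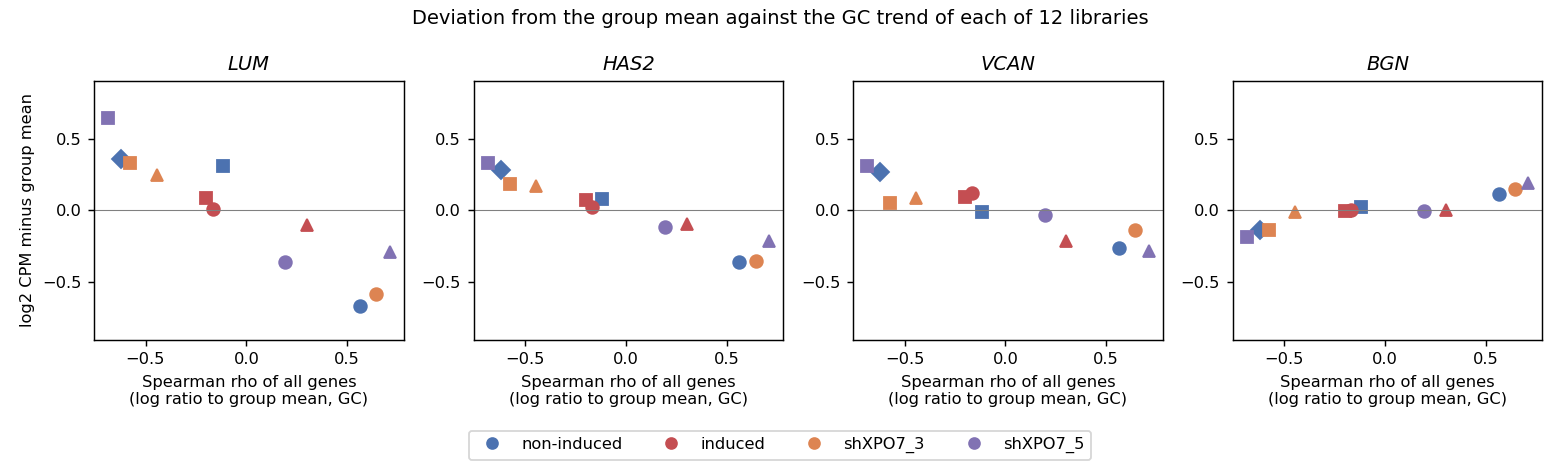
Each library's log2 CPM minus its group mean for LUM, HAS2, VCAN and BGN, against the library's Spearman rho between all genes' log ratios and transcript GC content; colours mark groups and shapes the library letters T, A, B and C as circle, square, triangle and diamond. LUM, HAS2 and VCAN are lower and BGN higher in the libraries with a rho above 0.5.

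HAS2 was the gene whose shRNA comparison depended most on this offset. It was at 86.7, 125.5 and 124.5 CPM with shXPO7_3 and 86.9, 118.7 and 81.3 with shXPO7_5, in both cases with libraries inside and outside the induced range. The log2 fold changes were 0.36 (SE 0.19, edgeR adjusted p = 0.866) and 0.13 (SE 0.19, edgeR adjusted p = 0.645). With the offset they were 0.34 (SE 0.06, adjusted p = 0.00732) and 0.55 (SE 0.06, adjusted p = 0.000401), and no other alternative of the 20 called them (adjusted p up to 0.9999 and 0.851). BGN with the offset was 0.32 and 0.29 higher (SE 0.04 for both, adjusted p = 0.00108 and 0.00151). For LUM the intervals were wide without the offset, -0.62 to 0.76 for shXPO7_3 and -0.89 to 0.49 for shXPO7_5, and it was not called with it (0.06 and 0.18, adjusted p = 0.940 and 0.502).

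Ratios within a library do not depend on its scaling. The log2 ratio of BGN to DCN was -1.97 ± 0.18 in non-induced and 1.58 ± 0.04 in induced cells (SD, n = 3). It was 2.14 ± 0.26 with shXPO7_3 and 2.19 ± 0.25 with shXPO7_5, above the induced cells in all 6 libraries (differences of 0.56 and 0.61). In the exact two-sided permutation test p = 0.1 for both, which is the smallest p that 3 libraries against 3 allow. With the GC offset the difference from induced cells was 0.20 for shXPO7_5. The log2 ratio of LUM to DCN differed from induced cells by 0.25 (exact permutation p = 0.4) and -0.13 (p = 0.8), and that of VCAN to ACAN by -0.80 (p = 0.4) and -1.66 (p = 0.1). With 0.5 CPM added to each level the VCAN to ACAN differences were -0.29 and -0.86, and for shXPO7_3 the difference was -0.35 without induced library A and -0.37 without shXPO7_3 library T. The share of HAS2 among the synthases was 99.1% in both shRNA groups (differences of -0.0525 and -0.0228 percentage points, exact permutation p = 0.9 and 1.0). These were 8 comparisons, none of which could reach a p under 0.1 before adjustment.

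Around these 10 genes, 98 further genes of the pathway were listed and 73 were tested. On induction 55 of the 73 were called, 27 higher and 28 lower (75.3%). Over all 15284 genes tested 50.9% were called, 24.8% higher and 26.1% lower. With upper-quartile factors, which set the median of all genes at -0.10 on the log2 scale, 38.3% of all called genes were higher in place of 48.8%. In this comparison the median log2 fold change of the 73 was 0.06, beside -0.01 over all genes. The lists were chosen with earlier results of these data known and were not tested as sets. Their shares called and adjusted p-values on induction are therefore given as description.

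The other proteoglycan core proteins were mostly lower in induced cells. Of the heparan sulfate proteoglycans 9 of 11 tested fell and none rose, with a median of -0.76. HSPG2 (perlecan, of basement membranes) went from 317.4 ± 68.2 to 86.5 ± 23.2 CPM (edgeR adjusted p = 6.11e-05) and SDC3, a syndecan of the cell surface, from 275.2 ± 27.0 to 104.9 ± 4.02 (adjusted p = 8.52e-07). All 3 tested small leucine-rich proteoglycans outside the set fell, PODN (podocan) from 8.36 ± 0.534 to 2.17 ± 0.178 CPM and FMOD (fibromodulin, which binds collagen) from 7.08 ± 0.640 to 3.94 ± 0.170. Of the other large proteoglycans and link proteins, 2 of 6 rose and 3 fell. CSPG4 (NG2, of the cell surface) fell from 169.8 ± 19.2 to 74.4 ± 5.58 CPM, SPOCK1 (testican) rose from 20.4 ± 2.29 to 32.2 ± 1.27, and SRGN (serglycin) fell from 3.38 ± 0.377 to 2.51 ± 0.355, a call lost in 5 of 20 alternatives.

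Genes of hyaluronan turnover moved both ways. CEMIP2, a hyaluronidase of the cell surface related to CEMIP, rose from 131.8 ± 5.94 to 484.7 ± 11.8 CPM (log2 fold change 1.88, SE 0.07, adjusted p = 4.58e-10), so the 2 relatives differed in opposite directions. HYAL3 rose from 3.82 ± 0.284 to 5.69 ± 0.424, and the lysosomal glycosidases GUSB and HEXA fell by 0.42 and 0.37 on the log2 scale. HYAL1 (log2 fold change 0.68, SE 0.44, adjusted p = 0.215) and HYAL2 (0.09, SE 0.11, adjusted p = 0.525) were not called, and HYAL1 was below 1 CPM. In all, 5 of 7 tested degradation genes were called, 3 higher and 2 lower.

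All 6 tested receptors and binding proteins of hyaluronan were called, 2 higher and 4 lower. CD44, the main surface receptor, rose from 1616 ± 90.9 to 2543 ± 42.1 CPM (adjusted p = 2.90e-06). TNFAIP6, which crosslinks hyaluronan and is induced in inflammation, rose from 4.26 ± 0.708 to 31.2 ± 2.97 (log2 fold change 2.86, SE 0.21, adjusted p = 2.88e-07). HMMR, a receptor that is also a spindle protein of dividing cells, fell from 26.8 ± 10.4 to 2.95 ± 0.320 CPM (log2 fold change -3.19, SE 0.34), and PTX3 fell from 162.7 ± 8.60 to 102.4 ± 3.52.

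Enzymes that supply and build the sugar chains were called in both directions. Of 10 genes for sugar nucleotide precursors 6 rose and 1 fell. GFPT2, which feeds the hexosamine pathway, rose from 23.8 ± 0.758 to 188.0 ± 5.61 CPM (log2 fold change 2.98, SE 0.08, adjusted p = 5.70e-11), SLC35D1 from 47.0 ± 0.934 to 86.6 ± 2.44, and SLC35D2, a further transporter of nucleotide sugars, fell from 17.3 ± 0.267 to 13.3 ± 1.15. Of 23 tested chain enzymes for chondroitin and dermatan sulfate 10 rose and 4 fell, so 60.9% were called, beside 50.9% of all genes. The sulfotransferase CHST11 rose from 6.60 ± 0.459 to 45.4 ± 1.08 CPM and CSGALNACT2, which starts and extends chondroitin chains, from 29.5 ± 5.56 to 110.0 ± 9.70. XYLT1, which adds the first sugar to the core protein, fell from 148.2 ± 12.1 to 65.4 ± 1.53, and DSEL, a dermatan sulfate epimerase, from 199.5 ± 31.7 to 113.1 ± 4.76.

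Of 6 tested ADAMTS proteases that cut proteoglycans, 3 rose and 2 fell (83.3% called). Their list also held TIMP3, an inhibitor of such proteases, which rose by 0.34 on the log2 scale (adjusted p = 0.00416) and is named here after its value was seen because it is no protease. ADAMTS4, an aggrecanase, rose from 2.42 ± 0.182 to 16.8 ± 0.972 CPM (log2 fold change 2.79, SE 0.11, adjusted p = 1.05e-09) and ADAMTS9 from 1.73 ± 0.546 to 2.98 ± 0.173. ADAMTS15 fell from 13.7 ± 1.89 to 0.908 ± 0.109 CPM (log2 fold change -3.90, SE 0.18, adjusted p = 3.30e-09), and ADAMTS1 from 217.7 ± 7.09 to 152.4 ± 1.20.

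**Figure D5:**
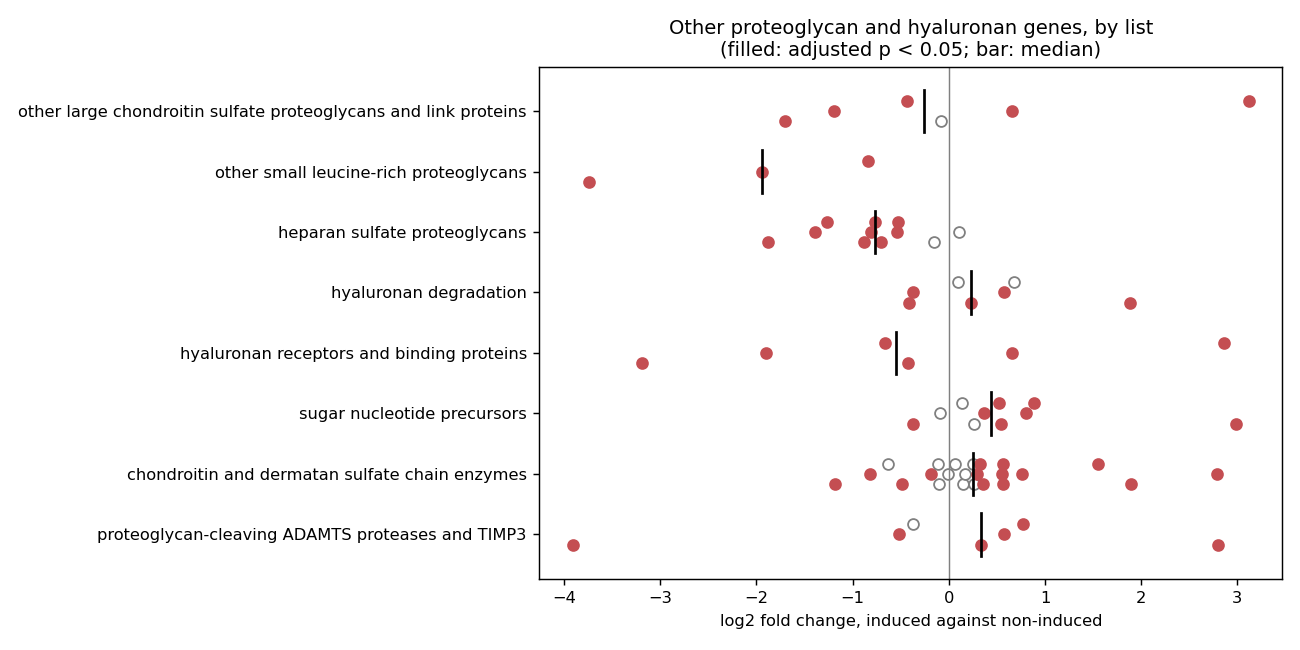
Log2 fold change in induced against non-induced cells for the 73 tested pathway genes outside the set, by list (the last includes TIMP3); filled points had an adjusted p under 0.05, open points did not, and vertical bars mark list medians. The heparan sulfate and small leucine-rich lists lie mostly left of 0, and the precursor and chain enzyme lists mostly right.

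For shXPO7_3 none of the 73 was called by edgeR, beside 0.124% of all genes, and the median was -0.02 on the log2 scale. For shXPO7_5, 2 of the 73 were called, both higher, beside 0.478% of all genes called higher. They were the link protein HAPLN3, from 6.15 ± 0.521 CPM in induced cells to 8.42 ± 0.273 (adjusted p = 0.0451), and the protease ADAMTS8, from 2.80 ± 0.464 to 5.21 ± 0.816 (adjusted p = 0.0418). The call was lost in 15 of 20 alternatives for HAPLN3 and in 11 of 20 for ADAMTS8. The count of 2 was 17 without shXPO7_5 library A, a fit in which 3634 of all 15790 genes tested were called. It was 4 without shXPO7_3 library T (181 of all 15525 genes), 1 without non-induced library T and 0 without any 1 of the other 9 libraries. CD44 was at 2388 ± 61.9 and 2335 ± 150.7 CPM with shXPO7_3 and shXPO7_5, CEMIP2 at 502.2 ± 23.4 and 479.3 ± 32.2, TNFAIP6 at 32.6 ± 6.57 and 25.7 ± 6.87 and HMMR at 3.62 ± 1.02 and 2.76 ± 1.29, none of them called. HYAL1 was at 0.318 ± 0.179 and 0.343 ± 0.0236 CPM and HYAL2 at 44.9 ± 4.17 and 53.7 ± 8.83, also without a call.

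The genes whose profile over the 12 libraries was nearest to that of ACAN were ELN, SLC7A14 and CXCL12, at root mean square distances of 0.61, 0.61 and 0.62 on the log2 scale among 10568 genes. Those nearest to CEMIP were GDF5, CXCL12 and SLC7A14, at 0.44, 0.45 and 0.57. ELN, which encodes elastin, was at 50.9 CPM in non-induced and 1.91 in induced cells, and GDF5, a growth factor of the bone morphogenetic protein family, was at 23.4 and 0.776 CPM. CXCL12, a chemokine, stood in both lists, at 26.4 and 0.699 CPM. ACAN and CEMIP were picked for their low level after induction, and all these genes shared that gap (log2 fold changes from -5.52 to -4.73). Nearness in profile is therefore description, and a shared control of these genes was not tested.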

How the data were processed

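Libraries were made with an Illumina stranded mRNA kit from RNA of IMR90 ER:RAS cells, and the 12 libraries were placed in 4 groups by the sample labels. The authors deposited read counts per gene without normalization, made, per the submitters' processing notes, with CASAVA 1.8.4, TopHat2 2.0.11 and featureCounts 1.18.0 on hg19 (GRCh37). Neither the gene annotation nor the settings for strand and multiply mapped reads were given in the sources used here. Counts of VCAN, BGN, HAS2, HAS3, CEMIP and HAPLN1 may therefore include reads of overlapping genes or lack reads on shared bases. Entries for 92 spike-in RNAs held 0 counts and were left out. Lengths, GC content and annotation came from GENCODE 29 on GRCh38 by Ensembl identifier, and promoters from RefSeq.

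Counts were analysed with edgeR 4.0.16 and limma 3.58.1 in R 4.3.3. Genes were filtered by filterByExpr, libraries scaled by the trimmed mean of M-values, and the quasi-likelihood test was run on all 12 libraries in 4 groups, with Benjamini-Hochberg adjustment over 15284 genes and a threshold of 0.05. The paper's text names no test for these counts. Ratios were tested by exact permutation in SciPy. Alternatives were other scalings and filters, DESeq2 1.42.0, the replicate letter as block, separate fits to each pair of groups, leaving out single libraries, and an offset from splines with 5 degrees of freedom on GC content and length; summing all exons for the HAS share was added after seeing the data. The test was checked on simulated counts, which were drawn without a GC trend between libraries. That check therefore does not cover the trend seen in these libraries. Within groups, all pairs of libraries showed differences above counting noise, so none was treated as a repeat.

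The members and gene lists were chosen with earlier results of these data known. Named in the text are the 10 members, CD44, HYAL1, HYAL2, CEMIP2, HMMR and TNFAIP6, per list and comparison up to 2 called genes each way with the largest change and a mean of at least 1 CPM, the 3 genes nearest to ACAN and to CEMIP among genes averaging at least 2 in log2 CPM, and XPO7. Distances used log2 CPM with a prior count of 2.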

Additional observations from a re-analysis of the deposited data

Results flagged for a closer look

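XPO7 differed between the shRNAs, which were compared directly. It was 0.92 higher on the log2 scale with shXPO7_5 than with shXPO7_3 (SE 0.07, edgeR adjusted p = 0.000387), in 3 of 3 libraries. In the fit to only these 2 groups it was not called (0.91, adjusted p = 0.114). Thus the groups set beside each other for the proteoglycan and hyaluronan genes did not have the same level of knockdown. Among the 8 tested members no such difference was called by edgeR, and DESeq2 called that of CEMIP (0.88, adjusted p = 0.00605).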

How the results depend on the processing

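Of 1393 single-gene values under 20 alternatives, leaving out the members on induction, 1339 kept their direction and their side of the threshold, 32 lost the call, 20 gained it and 2 reversed. Both reversals came with the GC content and length offset: HAS2 in shXPO7_5 against shXPO7_3 went from -0.23 to 0.21, and CEMIP2 in shXPO7_5 against induced from -0.02 to 0.21, neither called. A further 47 values changed sign with intervals that held 0 in both fits. For induction, the count of pathway genes called stayed within 1.5 times under all alternatives run.

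The number of members called against induced cells was 0 for shXPO7_3, and 1 with no filter beyond 1 count, 1 with DESeq2 and 3 with the offset. For shXPO7_5 it was 0, and 1 with RLE size factors, 1 with no filter, 1 with DESeq2, 2 with the offset and 0 to 3 with a library left out. Between the shRNAs it was 0, and 1 with no filter, with DESeq2 and with the offset. Of the pathway genes, 0 were called for shXPO7_3 and 2 with the offset. For shXPO7_5, 2 were called, and 1 with upper-quartile factors, 0 in the fit to only the 2 groups, 5 with DESeq2, 4 with the offset and 0 to 17 with a library left out, the 17 without shXPO7_5 library A. Over all genes, 19 were called for shXPO7_3 (1 to 295 over the alternatives), 90 for shXPO7_5 (2 to 3634, the highest without shXPO7_5 library A) and 2 between the shRNAs (0 to 28). In the same order, these counts were 295, 427 and 19 of 15284 genes with the offset. They were 97 of 15083, 458 of 12634 and 28 of 13860 with DESeq2, and 30, 217 and 20 of 31672 with no filter. The cause of these differences between settings was not tested.

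The difference in the log2 ratio of BGN to DCN between shXPO7_5 and induced cells was 0.61, and 0.20 with the offset. That of VCAN to ACAN was -0.29 for shXPO7_3 and -0.86 for shXPO7_5 with 0.5 CPM added, and ran from -1.12 to -0.35 and from -2.06 to -1.16 with a library left out. That of LUM to DCN ran from 0.13 to 0.47 and from -0.40 to 0.03, and was 0.07 for shXPO7_5 with the offset. The difference in HAS2 share was 0.275 percentage points for shXPO7_3 with 0.5 CPM added and 0.360 for shXPO7_5 with the offset, and the length used changed neither by more than the spread between libraries.

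The letters T, A and B were not treated as pairs in the main fit, and the values do not settle whether they mark pairs. Same-letter correlations of deviations from the group means ran from -0.02 to 0.06 for shXPO7_3 and from -0.07 to 0.19 for shXPO7_5 against induced, and from -0.23 to 0.37 between the shRNAs. The 2 letters shared by induced and non-induced libraries gave 0.20 and 0.21. Over all 15 same-letter pairs the range was -0.23 to 0.59, the highest for library T of non-induced and shXPO7_3 cells, and 8 were over 0.1. With the replicate block, 1 member (BGN) was called for shXPO7_5 and 149 genes in all, in place of 90. For shXPO7_3, 13 genes were called in place of 19. At an unadjusted p under 0.05 in edgeR's test, the block gave 5041 genes in place of 3302 for shXPO7_5. Between the shRNAs it gave 3559 in place of 1819, and for shXPO7_3 1104 in place of 979.

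Depth limits HAPLN1 and HAS1, which were not tested, ACAN after induction (3 to 27 reads per library) and HAS3 (21 to 77 reads).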
